A study of Homo sapiens with 9 samples.

Results

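The MHC class I antigen presentation pathway was followed through 9 genes (HLA-B, HLA-C, HLA-E, HLA-F, B2M, TAP1, TAP2, TAPBP and PSMB9), which were taken by their symbols from the 28216 genes of the deposited counts table, and all 9 were found there. RNA was sequenced from 2 established epithelial lines grown from metastases of prostate cancer, both labelled wild type, with 3 libraries in each of 3 groups. PC3 cells, which grow without androgen, were kept in F12K medium with FBS and had no treatment. LNCaP cells (clone FCG), which respond to androgen, were first kept for 24 h in RPMI without phenol red and with charcoal-stripped FBS, and then for 48 h with 10 nM dihydrotestosterone (DHT) or with its vehicle, 0.01% ethanol. DHT is the compound in the labels, whereas the text of the paper names the synthetic androgen R1881, and the sources do not settle which was used, so these cells are called androgen-treated. Each line is a single model, and the line, its medium and its serum cannot be told apart in a comparison of PC3 with LNCaP cells, whereas the LNCaP groups share line, clone and medium. The labels do not say that replicates came from separate cultures, so p-values measure the spread between these libraries, which may be technical.

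MHC class I molecules show peptides from inside a cell to CD8 T cells. The proteasome cuts proteins into peptides, the transporter made of TAP1 and TAP2 carries these into the endoplasmic reticulum, and tapasin (TAPBP) holds the empty heavy chain at the transporter until a peptide binds. The heavy chain (HLA-B, HLA-C, HLA-E or HLA-F) presents peptide in a complex with the light chain beta-2 microglobulin (B2M), and PSMB9 is a catalytic subunit that takes the place of PSMB6 in the immunoproteasome. Interferon gamma raises most of these genes, and tumour cells, those of the prostate among them, often express less of the pathway than the tissue they arose from.

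Of the 9 genes, 8 lie in the major histocompatibility complex on chromosome 6, and B2M lies on chromosome 15 (GRCh38, GENCODE annotation, all protein coding). HLA-F spans chr6:29722775-29738528, HLA-E chr6:30489509-30494194, HLA-C chr6:31268749-31272130 and HLA-B chr6:31353872-31367067. TAP2 spans chr6:32821833-32838739, TAP1 chr6:32845209-32853816, PSMB9 chr6:32844136-32859851 and TAPBP chr6:33299694-33314284, while B2M spans chr15:44711358-44718851. TAP1 and PSMB9 are transcribed away from each other from starts 488 bases apart, and 1 gene model of PSMB9 reaches back across TAP1 on the opposite strand. HLA-B and HLA-C are the closest relatives here, with 92.2% identity between their main transcripts.

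Promoter sequences came from RefSeq (GRCh38.p14) and were found for 8 of the 9 genes, all but HLA-E. The 250 bases upstream of the start are shown for the near-identical pair HLA-B and HLA-C, for B2M, which changed most with androgen, and for TAP1 and PSMB9, which share a stretch of DNA between their starts. They are written 5′ to 3′ on the strand of the gene, and capitals mark matches on either strand to an ISRE (the interferon-stimulated response element), to the NF-kappaB consensus, to the CRE core TGACG or to CCAAT. The windows are chr6:31357180-31357429 (minus strand) for HLA-B, chr6:31272093-31272342 (minus) for HLA-C, chr15:44711267-44711516 (plus) for B2M, chr6:32853705-32853954 (minus) for TAP1 and chr6:32853942-32854191 (plus) for PSMB9.
HLA-B: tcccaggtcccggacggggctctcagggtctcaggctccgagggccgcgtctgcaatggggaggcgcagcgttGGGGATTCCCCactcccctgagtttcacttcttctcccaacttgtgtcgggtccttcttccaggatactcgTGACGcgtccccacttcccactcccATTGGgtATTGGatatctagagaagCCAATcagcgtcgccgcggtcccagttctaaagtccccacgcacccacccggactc
HLA-C: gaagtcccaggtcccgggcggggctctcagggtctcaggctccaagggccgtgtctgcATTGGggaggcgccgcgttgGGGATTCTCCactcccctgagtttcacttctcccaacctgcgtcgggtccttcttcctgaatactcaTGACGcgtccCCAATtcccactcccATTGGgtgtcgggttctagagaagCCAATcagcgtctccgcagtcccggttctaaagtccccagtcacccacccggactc
B2M: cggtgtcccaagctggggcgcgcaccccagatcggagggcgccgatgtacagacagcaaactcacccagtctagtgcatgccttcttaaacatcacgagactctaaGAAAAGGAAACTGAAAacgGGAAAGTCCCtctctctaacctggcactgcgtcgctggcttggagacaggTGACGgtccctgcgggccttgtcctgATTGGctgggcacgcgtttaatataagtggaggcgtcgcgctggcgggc
TAP1: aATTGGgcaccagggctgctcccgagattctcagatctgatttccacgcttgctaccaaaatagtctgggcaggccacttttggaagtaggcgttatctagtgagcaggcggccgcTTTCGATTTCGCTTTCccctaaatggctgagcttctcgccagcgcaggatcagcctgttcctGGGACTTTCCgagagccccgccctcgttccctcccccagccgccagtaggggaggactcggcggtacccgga
PSMB9: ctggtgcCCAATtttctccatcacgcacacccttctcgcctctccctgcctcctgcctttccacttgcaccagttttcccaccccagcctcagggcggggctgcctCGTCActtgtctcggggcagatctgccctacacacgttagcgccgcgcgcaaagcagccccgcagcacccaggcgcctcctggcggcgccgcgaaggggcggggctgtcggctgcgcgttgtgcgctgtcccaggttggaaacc

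Matches were counted in windows that held the 250 bases upstream and a short stretch after the start. The ISRE was searched as 2 copies of GAAA with any 2 bases between them. It matched in 5 of the 8 windows (HLA-F, B2M, TAP1, TAP2 and TAPBP), against 3.57% of all 35116 promoters of the same length. B2M, TAP1 and TAPBP each held 2 overlapping matches. The NF-kappaB consensus matched in 5 of 8 windows (HLA-B, HLA-C, B2M, TAP1 and TAPBP), against 5.91% of all promoters. A further TAP1 match lay 23 to 32 bases after the start and is not shown. CCAAT was present in 6 of 8 (34.6% of all promoters) and TGACG in 5 of 8 (24.6%). For CCAAT, TAP1 and PSMB9 were both counted through the same site, which lies where their windows overlap. The androgen response half-site AGAACA and the interferon gamma site TTCNNNGAA were found in 0 of 8, against 14.8% and 7.66% of all promoters. HLA-B and HLA-C were 89.0% identical over the 250 bases upstream of the start. In both the order from the far end was NF-kappaB, CRE core and CCAAT, with 1 more CCAAT ahead of them in HLA-C. A match is a run of letters in this window and does not show that a factor binds there.

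**Figure D1:**
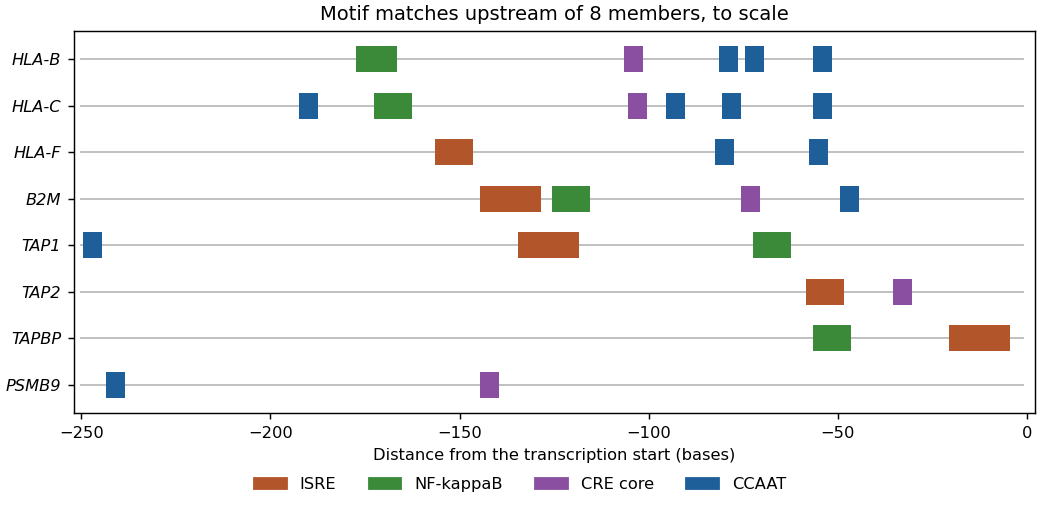
Positions of motif matches in the 250 bases upstream of 8 class I pathway genes, with the distance from the transcription start in bases on the x axis and 1 line per gene. Boxes are drawn to the length of the match. ISRE boxes appear for HLA-F, B2M, TAP1, TAP2 and TAPBP, whereas HLA-B, HLA-C and PSMB9 had no match to this exact pattern here. Looser forms of the element and sites further upstream were not searched.

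The number of reads counted on genes ranged from 17397706 to 25640325, and levels are given as CPM, counts relative to library size after scaling with TMM factors. The limit that a count of 0 allows lay between 0.118 and 0.165 CPM. The identity of the lines was checked with marker genes. KLK3, KLK2, TMPRSS2 and FOLH1, 4 markers of the LNCaP lineage, summed to 1970 to 8240 CPM in LNCaP libraries and 23.8 to 39.6 CPM in PC3 libraries. VIM, CAV1, CD44, ITGA3 and EPHA2, 5 markers of PC3 cells, reached 3860 to 4550 CPM in PC3 libraries, and in LNCaP libraries their sum was 0.389% to 0.965% of the PC3 mean, highest in androgen replicate 1. Leukocytes carry much class I RNA. Of 5 leukocyte markers, PTPRC and CD3E reached at most 0.216 CPM in the mean of any group, CD14 at most 0.229 and LYZ at most 0.174. The 5 summed to 31.9 to 35.1 CPM in PC3, 16.0 to 22.5 in androgen-treated and 1.81 to 2.36 in vehicle-treated libraries, most of it from CD68, a lysosomal protein of macrophages, and its part in the class I differences was not tested.

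The classical heavy chains HLA-B and HLA-C were lower in PC3 cells than in LNCaP cells. HLA-B, which presents peptides to CD8 T cells, had 23.8, 25.3 and 27.3 CPM in the PC3 libraries, 49.4, 50.7 and 37.99 in androgen-treated and 39.9, 43.4 and 37.4 in vehicle-treated LNCaP libraries. All 6 LNCaP libraries lay above the 3 PC3 libraries, and the LNCaP groups overlapped through androgen replicate 3. In PC3 against androgen-treated LNCaP cells HLA-B differed by -0.85 on the log2 scale (standard error 0.13, adjusted p = 0.000353 from edgeR). The adjustment ran over all genes tested. Against vehicle-treated cells it was -0.64 (standard error 0.09, adjusted p = 0.000211). Between the LNCaP groups the HLA-B difference was 0.20 (standard error 0.10, adjusted p = 0.0779), which did not pass the test. With the replicate number as a block, it was 0.19 and passed (adjusted p = 0.00824 from edgeR), and it also passed without androgen replicate 3 (0.33, adjusted p = 0.000847) and with no filter on low counts (0.22, adjusted p = 0.0267).

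HLA-C, which also binds receptors of natural killer cells, followed the same order with a clearer rise under androgen. It had 51.1, 59.0 and 63.6 CPM in PC3 libraries, 130.3, 131 and 112 in androgen-treated and 101, 104 and 94.6 in vehicle-treated LNCaP libraries. No group overlapped another. HLA-C was 2.15-fold lower in PC3 cells than in androgen-treated LNCaP cells (log2 fold change -1.10, standard error 0.10, adjusted p = 2.09e-05 from edgeR), just past the fold change of 2. Without PC3 replicate 1 the log2 value was -0.90 and without PC3 replicate 2 it was -0.997, both short of 2-fold. Against vehicle-treated cells it was -0.76 (adjusted p = 8.07e-05), and androgen raised HLA-C by 0.32 on the log2 scale (standard error 0.06, adjusted p = 4e-04 from edgeR).

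HLA-E, a heavy chain of little variation that presents leader peptides of other class I molecules to natural killer cells, went the opposite way between the lines. It had 138, 133 and 179 CPM in PC3 libraries, 40.0, 38.98 and 31.6 in androgen-treated and 19.1, 24.0 and 20.7 in vehicle-treated LNCaP libraries. The 3 groups did not overlap, and PC3 replicate 3 was the highest of all. HLA-E was 4.07-fold higher in PC3 than in androgen-treated LNCaP cells (log2 fold change 2.02, standard error 0.14, adjusted p = 3.3e-06 from edgeR) and 7.17-fold higher than in vehicle-treated cells (2.84, standard error 0.13, adjusted p = 4.55e-07). With androgen, HLA-E rose 1.74-fold in LNCaP cells (log2 fold change 0.80, standard error 0.10, adjusted p = 9.97e-06 from edgeR).

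HLA-F, a non-classical heavy chain that is mostly kept inside the cell, was the lowest of the heavy chains in every group. It had 27, 24 and 32 counts (1.06, 1.04 and 1.26 CPM) in PC3 libraries, 87, 83 and 64 counts (3.89, 4.10 and 3.22 CPM) in androgen-treated and 65, 68 and 49 counts (3.41, 3.73 and 2.49 CPM) in vehicle-treated LNCaP libraries. All LNCaP libraries were above all PC3 libraries, and the LNCaP groups overlapped. HLA-F was 3.31-fold lower in PC3 than in androgen-treated cells (log2 fold change -1.73, standard error 0.18, adjusted p = 3.57e-05 from edgeR), but it entered this test only through the androgen-treated libraries, where it was high, as no PC3 library reached 3 CPM. Androgen against vehicle gave 0.23 (standard error 0.17, adjusted p = 0.247). Too few libraries reached 3 CPM for HLA-F to enter the fit of PC3 against vehicle-treated cells, and with no filter on low counts its log2 fold change there was -1.47 (adjusted p = 0.000192). Reads on the opposite strand of HLA-F made up 37.3% to 54.2% of both strands in PC3 libraries and 2.35% to 34.7% in LNCaP libraries, and they do not enter these counts.

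The make-up of the heavy chain counts differed between the lines. Shares of counts also depend on transcript length. The main transcript of HLA-E has 2548 bases, and those of HLA-B, HLA-C and HLA-F have 1536, 1542 and 1480. HLA-B, HLA-C, HLA-E and HLA-F together reached 214 to 271 CPM in PC3, 185 to 225 in androgen-treated and 155 to 175 in vehicle-treated libraries. HLA-E took 63.8% ± 2.57 (SD, n = 3) of these counts in PC3 cells, 17.4% ± 0.403 in androgen-treated and 12.9% ± 1.12 in vehicle-treated LNCaP cells. HLA-C took 24.8% ± 1.92, 59.1% ± 1.36 and 60.7% ± 1.30 (SD, n = 3) in the same order. For HLA-B the shares were 10.9% ± 0.752, 21.7% ± 1.05 and 24.4% ± 0.350, and for HLA-F 0.480% ± 0.0146, 1.77% ± 0.0465 and 1.94% ± 0.293. The difference in the HLA-B share was -10.8 percentage points for PC3 against androgen-treated cells, -13.5 for PC3 against vehicle-treated cells and -2.70 for androgen against vehicle, and the libraries of the 3 groups did not overlap. Each gave p = 0.1 in a two-sided exact permutation test, the smallest that 3 libraries against 3 can give (adjusted p = 0.109 over 12 such tests of ratios).

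**Figure D2:**
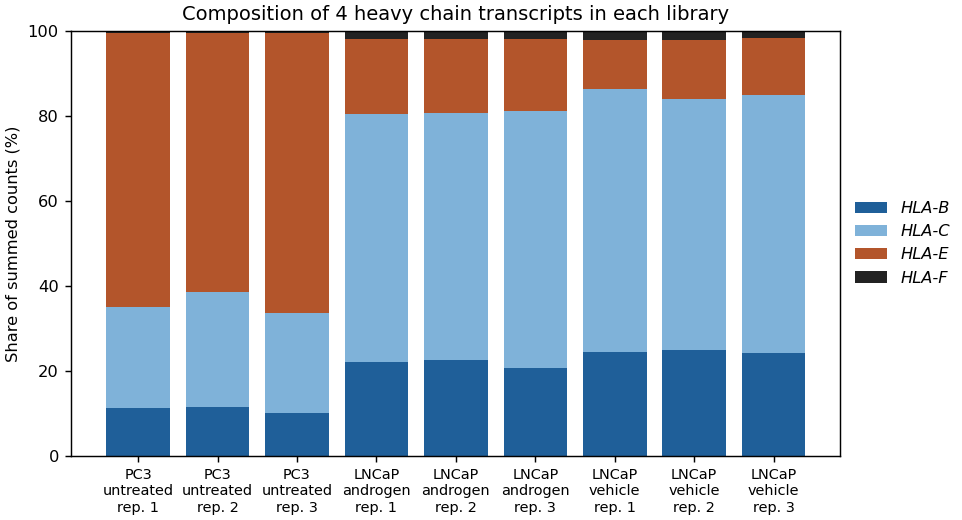
Share of each gene in the summed counts of HLA-B, HLA-C, HLA-E and HLA-F (y axis, percent), with 1 stacked bar per library. The shares are not scaled to transcript length. HLA-E fills the larger part of the 3 PC3 bars (mean 63.8%), and HLA-C that of the 6 LNCaP bars (59.1% with androgen and 60.7% with vehicle).

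HLA genes vary greatly between people, and the lines carry different alleles. Reads that differ from the reference can fail to align, so a lower HLA level in PC3 than in LNCaP cells and a poorer match of its alleles cannot be told apart from counts, while within LNCaP cells the alleles are the same. Of the 74-base stretches in the main transcript of each gene, 74 bases being the read length, none of HLA-B and HLA-F, 2.04% of HLA-C and 2.42% of HLA-E also occur elsewhere in the primary assembly or in transcripts of other genes. The alternate contigs of the assembly hold other versions of parts of the genome, the major histocompatibility complex among them. On these contigs, 42.5% to 86.4% of the stretches of each of the 9 genes occur again. That includes B2M (72.0%), which lies outside this complex. Whether the index of the authors held these contigs is not given in the sources used here. Reads that mapped to several places made up 7.29% to 9.48% of each library, and were not counted on genes.

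The light chain showed the largest response to androgen of the 9 genes. B2M, the light chain shared by the class I heavy chains, had 375, 403 and 411 CPM in PC3 libraries, 585, 601 and 600.5 in androgen-treated and 159.8, 161 and 157 in vehicle-treated LNCaP libraries. The 3 groups stood well apart, and within a group the levels differed by a coefficient of variation of 1.33% to 4.82%. Androgen raised B2M 3.74-fold (log2 fold change 1.90, standard error 0.04, adjusted p = 1.33e-13 from edgeR), and leaving out single libraries gave log2 values of 1.88 to 1.92. PC3 cells lay between the LNCaP groups, 1.50-fold below androgen-treated cells (log2 fold change -0.59, standard error 0.07, adjusted p = 6.2e-05 from edgeR) and 2.53-fold above vehicle-treated cells (1.34, standard error 0.06, adjusted p = 4.28e-07). In bulk RNA, fewer cells that express a gene and less RNA of it per cell cannot be told apart.

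Light and heavy chain transcripts did not move in step. The ratio of B2M counts to the summed counts of HLA-B, HLA-C, HLA-E and HLA-F was 1.75, 1.84 and 1.52 in PC3 libraries, 2.62, 2.68 and 3.25 in androgen-treated and 0.976, 0.922 and 1.01 in vehicle-treated LNCaP libraries. The groups did not overlap, with vehicle lowest and androgen highest. On the log2 scale the ratio was 1.55 higher with androgen than with vehicle, and the differences of PC3 cells were -0.74 from androgen-treated and 0.81 from vehicle-treated cells (exact permutation p = 0.1 for each, adjusted p = 0.109). These are ratios of counts, which also depend on the lengths of the transcripts, so they are compared between groups only.

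**Figure D3:**
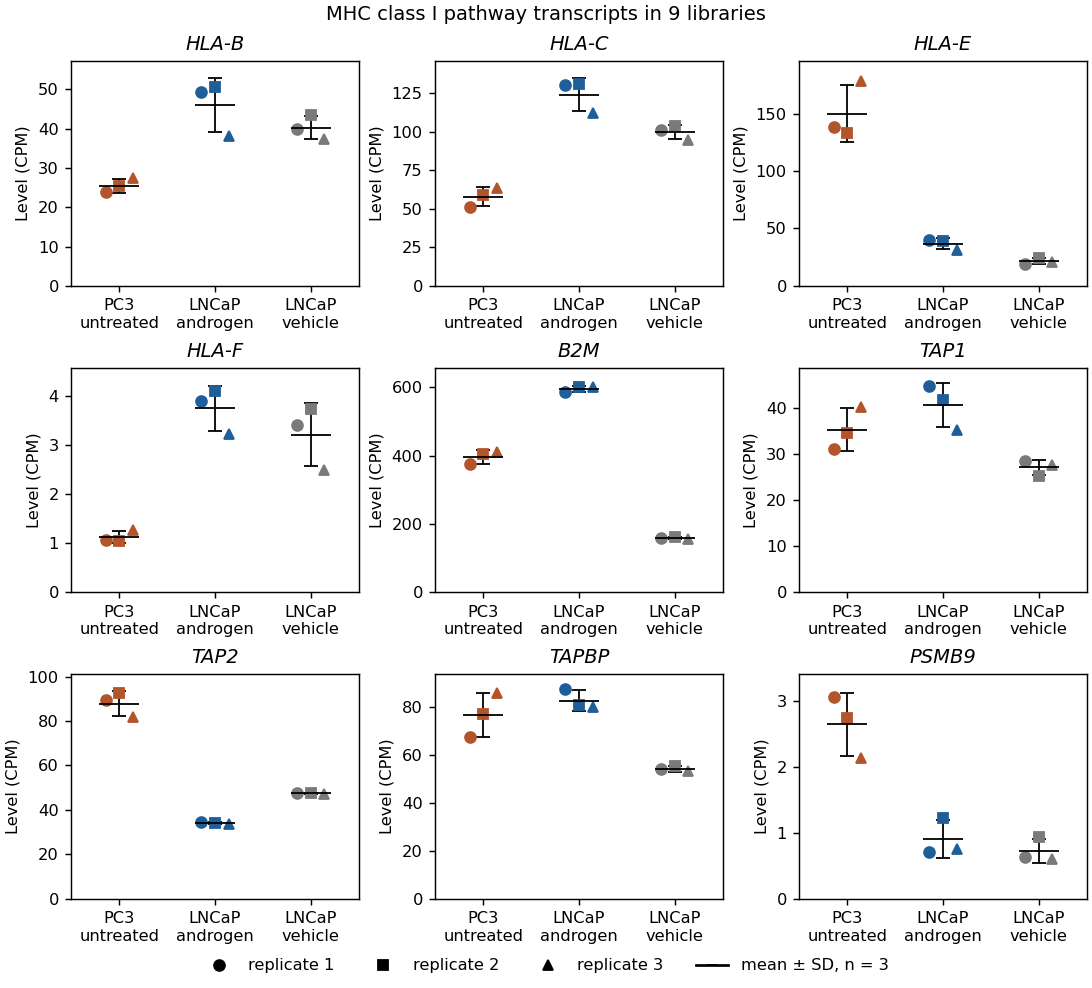
Level of each of the 9 class I pathway genes (y axis, CPM scaled with TMM factors, from 0) in the 3 libraries of each group, with the mean and SD as black bars. B2M separates the 3 groups most widely in CPM (by fold, HLA-E does, at 7.17-fold between PC3 and vehicle-treated cells), HLA-E and TAP2 are highest in PC3 cells, and PSMB9 stays under 3.1 CPM in every library.

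The subunits of the peptide transporter moved in opposite directions with androgen. TAP1 had 31.1, 34.7 and 40.3 CPM in PC3 libraries, 44.8, 41.9 and 35.3 in androgen-treated and 28.6, 25.4 and 27.6 in vehicle-treated LNCaP libraries. The PC3 and androgen-treated libraries overlapped, and both groups lay above the vehicle-treated libraries. TAP1 rose 1.50-fold with androgen (log2 fold change 0.59, standard error 0.09, adjusted p = 4.23e-05 from edgeR). In PC3 cells it was 0.40 above vehicle-treated cells on the log2 scale (standard error 0.11, adjusted p = 0.00894), which did not pass without vehicle replicate 2 (adjusted p = 0.114) or 3 (adjusted p = 0.078). Against androgen-treated cells the difference was -0.20 (standard error 0.13, adjusted p = 0.175), and without androgen replicate 3 it was -0.40 and passed (adjusted p = 0.0252 from edgeR). TAP1 counts without regard to strand were 75.3% to 79.9% of the stranded counts used here.

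TAP2 had 89.3, 92.5 and 81.7 CPM in PC3 libraries, 34.3, 34.2 and 33.7 in androgen-treated and 47.8, 47.4 and 47.3 in vehicle-treated LNCaP libraries. The groups did not overlap, and the 3 libraries of each LNCaP group lay within 1 CPM of each other. Androgen lowered TAP2 1.39-fold (log2 fold change -0.48, standard error 0.05, adjusted p = 1.24e-06 from edgeR), and TAP2 was the only one of the 8 genes tested that passed in this direction. PC3 cells had 2.58-fold more TAP2 than androgen-treated cells (log2 fold change 1.37, standard error 0.08, adjusted p = 1.01e-06 from edgeR) and 1.88-fold more than vehicle-treated cells (0.91, standard error 0.07, adjusted p = 8.33e-06). The second value stood below 2-fold, and passed it (1.05) without PC3 replicate 3.

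Accordingly, the ratio of TAP1 to TAP2 counts was 0.349, 0.375 and 0.494 in PC3 libraries, 1.31, 1.23 and 1.05 in androgen-treated and 0.599, 0.535 and 0.583 in vehicle-treated LNCaP libraries. No groups overlapped. The log2 ratio was 1.06 higher with androgen than with vehicle, and the differences of PC3 cells were -1.57 from androgen-treated and -0.51 from vehicle-treated cells (exact permutation p = 0.1 for each, adjusted p = 0.109).

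Tapasin, the bridge between the transporter and the empty heavy chain, rose with androgen much as TAP1 did. TAPBP had 67.5, 77.1 and 86.0 CPM in PC3 libraries, 87.8, 80.9 and 80.1 in androgen-treated and 54.3, 55.7 and 53.2 in vehicle-treated LNCaP libraries. PC3 and androgen-treated libraries overlapped, and both lay above all vehicle-treated libraries. The rise with androgen was 1.53-fold (log2 fold change 0.61, standard error 0.05, adjusted p = 1.63e-07 from edgeR), and PC3 cells were 0.52 above vehicle-treated cells (standard error 0.09, adjusted p = 0.000848). PC3 against androgen-treated cells gave -0.11 (standard error 0.10, adjusted p = 0.322), with a sign that turned without PC3 replicate 1 (0.10) or 2 (0.01). Reads on the opposite strand of TAPBP were 2.69% to 3.76% of both strands in PC3, 7.10% to 8.52% in androgen-treated and 10.9% to 12.1% in vehicle-treated libraries.

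The immunoproteasome subunit PSMB9 was scarce in both lines. PSMB9 had 78, 63 and 54 counts (3.07, 2.74 and 2.13 CPM) in PC3 libraries, 16, 25 and 15 counts (0.716, 1.23 and 0.756 CPM) in androgen-treated and 12, 17 and 12 counts (0.629, 0.933 and 0.610 CPM) in vehicle-treated LNCaP libraries. All PC3 libraries were above all LNCaP libraries, and the LNCaP groups overlapped. PSMB9 did not pass the filter on low counts in any comparison, so it has no value in the fits above. With no filter, its log2 fold change was 1.57 in PC3 against androgen-treated cells (standard error 0.27, adjusted p = 0.000342 from edgeR), 1.90 against vehicle-treated cells (standard error 0.26, adjusted p = 9.69e-05) and 0.34 for androgen against vehicle (standard error 0.34, adjusted p = 0.435).

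PSMB6, the constitutive subunit that PSMB9 replaces, reached 156 ± 12.7 CPM per kilobase of its main transcript (SD, n = 3) in PC3, 181 ± 6.30 in androgen-treated and 153 ± 1.70 in vehicle-treated cells, where PSMB9 had 2.60 ± 0.467, 0.887 ± 0.283 and 0.712 ± 0.178. The log2 ratio of PSMB9 to PSMB6 counts was -5.46, -5.62 and -5.77 in PC3 libraries, -7.71, -6.86 and -7.67 in androgen-treated and -7.63, -7.10 and -7.69 in vehicle-treated LNCaP libraries. PC3 libraries were all above LNCaP libraries, by 1.80 on average against androgen and 1.86 against vehicle (exact permutation p = 0.1 for each, adjusted p = 0.109). Between the LNCaP groups, which overlapped, the mean difference was 0.06 (exact permutation p = 0.9), and its sign turned when androgen replicate 2, vehicle replicate 1 or vehicle replicate 3 was left out.

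**Figure D4:**
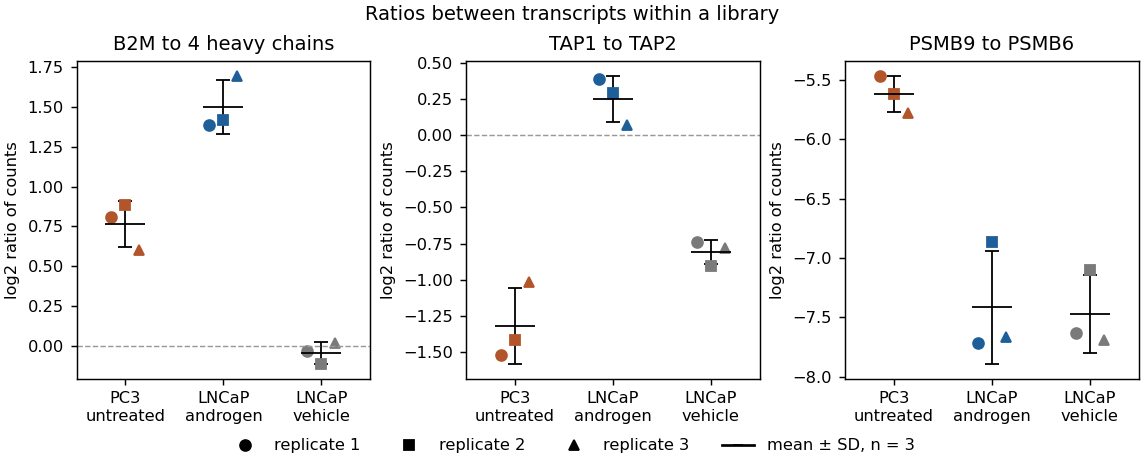
Log2 ratios of counts within each library (y axis) for B2M to 4 heavy chains, TAP1 to TAP2 and PSMB9 to PSMB6, with 3 libraries per group and the mean and SD as black bars. In the first and second panels the groups do not overlap, and the dashed line marks equal counts. In the third panel the PC3 libraries (-5.77 to -5.46) stand above the LNCaP libraries (-7.71 to -6.86).

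Levels of different genes were compared per kilobase of the main transcript. In PC3 cells B2M came first (420.2 ± 20.3 CPM per kilobase, SD, n = 3), followed by HLA-E (58.9 ± 9.75), HLA-C (37.5 ± 4.07), TAPBP (22.3 ± 2.68), HLA-B (16.6 ± 1.16), TAP2 (15.6 ± 0.988), TAP1 (13.2 ± 1.72), PSMB9 and HLA-F (0.759 ± 0.0828). In this order HLA-B and TAP2, and TAP2 and TAP1, did not differ beyond their spread. In androgen-treated LNCaP cells B2M reached 631 ± 9.74 CPM per kilobase and HLA-C 80.7 ± 6.93, with HLA-E (14.5 ± 1.80) down in sixth place beside TAP1 (15.1 ± 1.81), from which it did not differ beyond the spread. In vehicle-treated cells B2M still led, at 169 ± 2.28 CPM per kilobase against 64.8 ± 3.06 for HLA-C, and HLA-E (8.35 ± 0.992) did not differ from TAP2 (8.42 ± 0.0446) beyond its spread.

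Androgen treatment of LNCaP cells was thus followed by higher B2M, HLA-E, TAPBP, TAP1 and HLA-C and by lower TAP2. Of the 9 genes 8 were tested, and 1 of them, B2M, was called at an adjusted p under 0.05 and at least 2-fold, where 14.0% of the 11697 genes tested were called (6.54% higher and 7.49% lower). An adjusted p under 0.05 alone was reached by 6 of the 8 (74.9% of all genes tested), 5 of them higher and 1 lower (37.1% and 37.8% of all). With the replicate number as a block, 7 of the 8 reached it, HLA-B among them, as did 9103 of the 11697 genes. The groups did not overlap for 6 of 8, against 77.9% of all genes tested. The median log2 fold change of the 8 was 0.453 and that of all genes tested -0.00682.

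In the comparison of PC3 with androgen-treated LNCaP cells, 4 of the 8 genes tested were called, HLA-E and TAP2 as higher in PC3 cells and HLA-C and HLA-F as lower. HLA-F entered only through the group where it was high, and leaving it aside 3 of 7 were called. HLA-F also counts in the adjusted p, overlap and median values given below for this comparison. The share of 4 in 8 stands beside 46.0% of all 12541 genes tested (24.0% higher and 22.1% lower). HLA-B and B2M were also lower by the adjusted p alone, which made 6 of 8 against 84.0% of all genes (2 higher against 42.9%, 4 lower against 41.1%), and the groups did not overlap for 6 of 8 against 86.4%. Between PC3 and vehicle-treated cells, 7 genes were tested and 2, HLA-E and B2M, were called, both higher in PC3 cells, where 43.2% of 12686 genes were called. All 7 reached an adjusted p under 0.05 in that comparison (83.4% of all genes), 5 higher and 2 lower (42.6% and 40.8% of all genes), without overlap of the groups (85.9% of all genes). The median log2 fold changes of the genes tested were -0.394 against androgen-treated and 0.522 against vehicle-treated cells, and those of all genes 0.0356 and 0.0263. The -0.394 covers 8 genes with HLA-F and the 0.522 covers 7 without it, so they are not over the same genes. The comparisons share libraries, so their values for a gene are not independent.

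**Figure D5:**
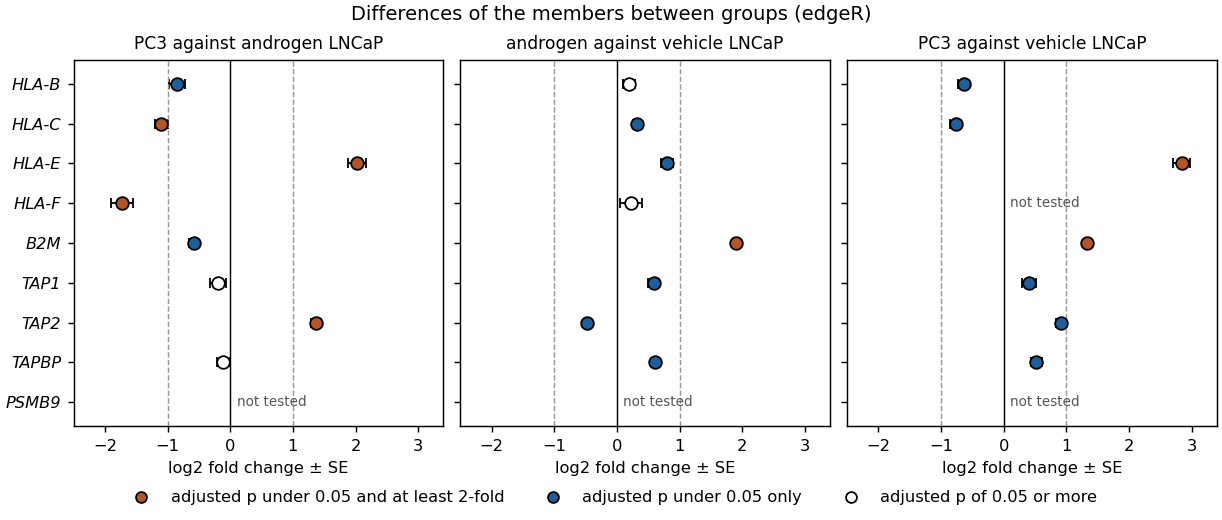
Log2 fold change and standard error (x axis) of each gene in the 3 comparisons, with dashed lines at 2-fold and the colour of the point showing the outcome of the edgeR test. B2M at 1.90 is the only point past 2-fold for androgen against vehicle, whereas HLA-C, HLA-E, HLA-F and TAP2 are past it for PC3 against androgen-treated LNCaP cells.

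A list of 36 other genes of the pathway was examined in the same fits. With androgen, 31 of them were tested and 0 were called at 2-fold by edgeR's quasi-likelihood test, by its likelihood ratio test or by DESeq2 (14.0% of all genes were called), while 26 had an unadjusted p under 0.05. With no filter, with unstranded counts, with all 9 libraries in 1 fit, and without androgen replicate 1 or vehicle replicate 1, 1 gene was called. Of the 31, 16 were higher and 10 lower by an adjusted p under 0.05 (37.1% and 37.8% of all genes). The 5 chaperones of peptide loading were all higher, among them PDIA3, which forms a disulphide bond with tapasin (log2 fold change 0.56, adjusted p = 1.77e-08 from edgeR), calreticulin (CALR, 0.32, adjusted p = 9.47e-06) and the tapasin relative TAPBPL (0.59, adjusted p = 0.00139). Of 11 regulators of class I transcription, 6 were lower and 3 higher. The lower ones included NLRC5, the transactivator of class I genes (-0.99, adjusted p = 0.000106), and its partners RFX5 (-0.51, adjusted p = 3.09e-07) and RFXAP (-0.82, adjusted p = 6.34e-06), and the higher ones included IRF1 (0.67, adjusted p = 0.00102). NLRC5 was at 4.19, 4.23 and 4.47 CPM in vehicle-treated and 2.51, 1.73 and 2.22 CPM in androgen-treated libraries.

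Of the 4 genes of interferon gamma signalling, the receptor chains IFNGR1 (0.65, adjusted p = 2.91e-07 from edgeR) and IFNGR2 (0.44, adjusted p = 0.000114) and the kinase JAK1 (0.71, adjusted p = 4.19e-05) were higher with androgen, whereas the kinase JAK2 (-0.80, adjusted p = 1.28e-07) was lower. All 3 constitutive catalytic subunits of the proteasome rose, from 0.21 for PSMB5 to 0.31 for PSMB7 on the log2 scale (largest adjusted p = 0.000617 from edgeR). PSMB10, the other immunoproteasome subunit of the list, rose by 0.32 (adjusted p = 0.00516), and the proteasome activator subunit PSME1 was lower (-0.23, adjusted p = 0.000673).

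In PC3 against androgen-treated LNCaP cells, 33 of the 36 were tested, with 6 called higher and 2 lower (24.0% and 22.1% of all genes). JAK1 had 102 CPM in PC3 and 11.4 CPM in androgen-treated cells (log2 fold change 3.17, adjusted p = 6.33e-08 from edgeR). The trimming peptidase ERAP2 had 17.8 against 1.23 CPM (3.85, adjusted p = 4.9e-07), and the neonatal Fc receptor FCGRT, a class I-like molecule that also pairs with B2M, had 53.9 against 0.223 CPM (7.88, adjusted p = 2.7e-08). MICB, a stress ligand of natural killer cells that needs no B2M, was counted 434 to 524 times in PC3 and 0 to 3 times in LNCaP libraries. TAPBPL went the other way, with 0.434 against 7.97 CPM (-4.18, adjusted p = 3.11e-07 from edgeR). The class I-like iron regulator HFE had 0 counts in the 3 PC3 libraries and 71 to 148 in the LNCaP libraries. TAPBPL and HFE were the 2 called lower. ERAP2, FCGRT and MICB, and TAPBPL and HFE in the opposite direction, entered these tests only through the line where they were high. Against vehicle-treated cells 34 of the 36 were tested, with 8 called higher and 4 lower (22.2% and 21.0% of all genes), among the lower ones NLRC5 (-1.41, adjusted p = 0.00217 from edgeR) and RFXAP (-1.39, adjusted p = 9.88e-05). NLRC5 reached 3 CPM in no PC3 library, and so entered only through the vehicle-treated cells. ERAP2, FCGRT, MICB, TAPBPL and HFE were again among the called genes, and again entered only through the line where they were high.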

How the data were processed

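RNA from 9 libraries (3 of PC3, 3 of androgen-treated and 3 of vehicle-treated LNCaP cells) was analysed. Poly(A) RNA was sequenced as 74-base single reads. The submitters' processing notes name cutadapt 4.1, STAR 2.7.7a, UMI-tools 1.1.2 and GRCh38. The authors deposited counts, whole numbers of reads per gene without normalization, and all 28216 values of each library were equal to the stranded counts in column 3 of the STAR output. Every library column was used and 0 were left out.

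Members and gene lists were chosen with earlier results of these data known. Some genes of the pathway and of the marker lists are not reported here, and counts over lists leave them out. All 9 members are named, genes of the lists that passed a test could be named as examples, and a few untested marker and class II genes are named for their low levels after these were seen. The genes nearest to 3 of the members by Pearson correlation were found on log2(CPM + 1).

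Genes with more than 3 CPM in at least 3 libraries of a comparison were tested with edgeR 4.0.16 (R 4.3.3), TMM factors, the quasi-likelihood test and Benjamini-Hochberg adjustment over all genes, on the 6 libraries compared. Called means an adjusted p-value under 0.05 and at least 2-fold. The paper's unnamed batch term was left out. Levels are CPM with TMM factors from the 9 libraries together, and limits for a count of 0 (3 counts) cover counting error only. Ratios within a library were compared with two-sided exact permutation tests (scipy 1.17.1). The scripts were tested on simulated data. Gene positions came from GENCODE on GRCh38.

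Between androgen-treated and vehicle-treated LNCaP libraries of the same replicate number, deviations from the group means correlated with 0.20, 0.23 and 0.21 over 11697 genes, and between different numbers with -0.24 to 0.04. By this check, LNCaP libraries of the same replicate number deviated more alike than those of different numbers. It rests on the data and not on the labels, and does not show how the libraries were paired, if they were. The main tests and the permutation tests did not use the replicate number, and the replicate block used it in edgeR. Between PC3 and LNCaP libraries, the same number showed no such likeness. The alternatives were DESeq2 size factors, the DESeq2 1.42.0 Wald test, edgeR's likelihood ratio test, no filter, the replicate block, unstranded counts, all 9 libraries in 1 fit, the adjusted p-value alone and leaving out each library.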

Additional observations from a re-analysis of the deposited data

Results flagged for a closer look

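Reads on the strand opposite to a gene take no part in the comparisons above. At 3 of the 9 genes they were above their level in every vehicle-treated library, in PC3 or androgen-treated libraries. The share of all genes with such a difference was not computed. At TAPBP these reads were lower in PC3 (2.13 to 3.0 CPM) than with vehicle (6.5 to 7.44 CPM), without overlap. At HLA-F they were lower with androgen (0.0987 to 0.605 CPM, 2 to 12 counts) than with vehicle (1.04 to 1.32 CPM). At B2M they averaged 1.20 CPM in androgen-treated and 0.872 CPM in PC3 libraries, against 0.264 CPM with vehicle, from 16 to 36, 13 to 32 and 3 to 7 counts per library. At HLA-E they averaged 0.519 CPM in PC3 libraries (11 to 14 counts) against 0.0536 CPM with vehicle (0 to 2 counts). At TAP1 the mean was 0.519 CPM in PC3 libraries (10 to 14 counts) against 0.228 CPM with vehicle (3 to 5 counts). As a share of the reads of both strands, the groups overlapped at B2M (0.140% to 0.335% in PC3, 0.131% to 0.275% with androgen and 0.097% to 0.229% with vehicle) and at HLA-E (0.287% to 0.455% in PC3 and 0% to 0.455% with vehicle). At TAP1 the share was 1.25% to 1.73% in PC3 and 0.546% to 1.07% with vehicle, without overlap.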

How the results depend on the processing

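Of 295 log2 fold changes of members under an alternative, 288 kept their direction and their side of the call. HLA-C in PC3 against androgen-treated cells fell short of 2-fold without PC3 replicate 1 or 2 (-0.90 and -0.997). HLA-B in that comparison passed 2-fold without androgen replicate 3 (-1.08), and TAP2 in PC3 against vehicle-treated cells did so without PC3 replicate 3 (1.05). TAP1 and TAPBP in PC3 against androgen-treated cells ranged from -0.40 to 0.0042 and from -0.24 to 0.10 with single libraries left out, and TAPBP was 0.01 without PC3 replicate 2. Of 84 differences of ratios under an alternative 81 kept their direction, and the log2 ratio of PSMB9 to PSMB6 with androgen ranged from -0.22 to 0.25 with single libraries left out. By the adjusted p alone, 6 members were called for androgen against vehicle and 7 for PC3 against vehicle-treated cells, where no filter gave 4 by adding HLA-F and PSMB9. The replicate block called 1 of 8 members for androgen, as without it, and changed no other call, while HLA-B passed the adjusted p with it. For PC3 the block left 4 of 8 and 2 of 7 called. HLA-F could not be tested in PC3 against androgen-treated cells with any androgen library left out or with unstranded counts, because too few libraries then reached 3 CPM. Depth limits PSMB9, with 12 to 25 counts in LNCaP libraries.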

Other observations

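MHC class II genes, which usually mark professional antigen-presenting cells, were not uniform in LNCaP cells. HLA-DMA and HLA-DMB, whose products load peptides on class II molecules, were the 2 of 7 class II genes that could be tested. HLA-DMA had 91.2 CPM with androgen, 11.5 CPM with vehicle and 1.07 CPM in PC3 cells, and rose with androgen by 2.99 on the log2 scale (standard error 0.13, adjusted p = 3.02e-10 from edgeR). HLA-DMB had 30.5, 9.99 and 0.0407 CPM in the same order, a log2 fold change of 1.61 with androgen (standard error 0.14, adjusted p = 2.3e-07 from edgeR). The other 5 stayed below 1 CPM in the mean of every group and were not tested. Of these, 3 were lower with androgen without overlap of the LNCaP groups. Among all genes tested, 77.9% did not overlap in either direction. Those genes passed the filter on low counts and these 3 did not, so the share does not cover genes at such low counts. HLA-DRA had 0.0314 CPM with androgen (0 to 1 counts) and 0.944 CPM with vehicle (15 to 21 counts). HLA-DPA1 had 0.224 and 0.865 CPM, and HLA-DPB1 had 0.0164 and 0.284 CPM, in the same order. CD74 and the class II transactivator CIITA had at most 3 counts in any library.

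The genes whose levels followed a member most closely were found by Pearson's r of log2(CPM + 1) over the 9 libraries among 12835 genes, given as a description, since the libraries fall into 3 groups. For B2M these were C12orf65 (r = 0.997), CNN2, OTULINL, TEX2 and WDR44. OTULINL had 101 CPM in PC3, 178 CPM in androgen-treated and 15.2 CPM in vehicle-treated cells. For TAP1 they were BAG6 (r = 0.952), which also lies in the major histocompatibility complex, CLDN3, CTSD, SLC35E1 and DEPP1, and for HLA-B they were TM2D1 (r = 0.981), CGREF1, TOLLIP-AS1, ZMYM6 and GFOD2.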
